A study of Homo sapiens with 6 samples.

Results

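Immediate early genes and their MAP kinase feedback regulators were followed in BL-2, an established Burkitt lymphoma line of germinal centre type B cells, left untreated or exposed to lipopolysaccharide (LPS) for 6 h. The 38 genes were AP-1 subunits, EGR, NR4A, KLF and ETS transcription factors, MAP kinase phosphatases, and Sprouty and SPRED inhibitors. Regulators of mRNA decay and growth arrest and the IER genes completed the list. All were listed by name and function, with earlier results of these data known. Each was represented by the Affymetrix probe set that the platform annotation assigns to that gene alone and that had the highest mean over all 6 arrays. This gave 36 members among 19775 genes. EGR2 and BTG2 had no probe set with their symbol in the annotation used and were not analysed here. The control group held 3 arrays of cells with no treatment and the LPS group 3 arrays of cells after 6 h of LPS. All came from the same line, 1 time point was sampled, and the labels give neither the LPS dose nor separate cultures, so p-values measure a spread between samples that may be partly technical.

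Immediate early genes are transcribed from factors already present in the cell when a receptor activates the MAP kinases ERK, JNK and p38. ERK phosphorylates ternary complex factors such as ELK1, which sit with SRF on the CArG box of promoters such as that of EGR1. Their products are transcription factors and also brakes: DUSP phosphatases remove the activating phosphates from the kinases, Sprouty and SPRED proteins restrain RAS and RAF, and ZFP36 proteins degrade mRNAs with AU-rich ends. The transcripts are usually short-lived. In B cells the antigen receptor and Toll-like receptors are among the receptors that engage this programme.

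Values are the deposited log2 values of each probe set. They compare arrays for 1 gene and are not transcript abundances that can be set against each other between genes. Over all probe sets the arrays correlated at 0.992 to 0.997. The arrays fell into 2 sets by the mean level of 18 added hybridisation control probe sets, 10.24 ± 0.045 (SD, n = 3) for set A (control 1, LPS 1 and LPS 2) and 10.57 ± 0.051 (SD, n = 3) for set B (control 2, control 3 and LPS 3). What set the arrays apart was not tested, and values within each set are given below where they bear on a member. All 9 measured B cell markers and 5 of 7 germinal centre B cell markers lay above the upper quartile of probe set levels, 7.41. Below the median level, 6.45, lay 8 of 9 monocyte and macrophage markers and 7 of 8 T and NK cell markers. So did 5 of 9 fibroblast and epithelium markers, with COL1A1 above the upper quartile, and 2 of 5 erythroid cell and platelet markers. The mean level of the monocyte and macrophage markers ran from 6.14 to 6.18 in control and from 6.14 to 6.17 in LPS arrays. That of the 9 B cell markers ran from 10.22 to 10.37 in control and from 10.10 to 10.22 in LPS arrays, with a median difference of -0.18 and 0 passing. That of the 7 measured germinal centre B cell markers ran from 9.33 to 9.40 in control and from 9.01 to 9.14 in LPS arrays, with a median of -0.31. Of these MYBL1 passed, at -0.56 (limma adjusted p = 0.0288). The part of these shifts in the results below was not tested.

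The promoters of 5 members are shown because the results turn on these genes. IER5, GADD45B, JUND and KLF6 are the members that passed in the fit with array set as a block over all 6 arrays, and EGR1 carries the classical serum response elements. Each is the 250 bases before the gene start from RefSeq on GRCh38.p14, read 5′ to 3′ on the strand of the gene. Capitals mark CArG boxes, TGACGT (the core of the cyclic AMP response element, read by CREB and ATF factors), TGANTCA (the AP-1 site), kB motifs and TATAAA, each searched on both strands.
IER5, chr1:181088450-181088699, plus strand: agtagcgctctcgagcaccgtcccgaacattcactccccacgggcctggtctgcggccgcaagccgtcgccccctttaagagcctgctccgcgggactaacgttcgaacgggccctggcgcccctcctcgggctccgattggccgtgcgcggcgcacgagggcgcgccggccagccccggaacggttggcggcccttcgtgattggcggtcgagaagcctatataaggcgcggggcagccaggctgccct
GADD45B, chr19:2475877-2476126, plus strand: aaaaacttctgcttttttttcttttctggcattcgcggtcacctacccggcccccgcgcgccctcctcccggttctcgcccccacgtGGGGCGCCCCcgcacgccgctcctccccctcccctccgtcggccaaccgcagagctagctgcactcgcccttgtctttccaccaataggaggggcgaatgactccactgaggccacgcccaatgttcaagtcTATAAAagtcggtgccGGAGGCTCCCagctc
JUND, chr19:18281623-18281872, minus strand: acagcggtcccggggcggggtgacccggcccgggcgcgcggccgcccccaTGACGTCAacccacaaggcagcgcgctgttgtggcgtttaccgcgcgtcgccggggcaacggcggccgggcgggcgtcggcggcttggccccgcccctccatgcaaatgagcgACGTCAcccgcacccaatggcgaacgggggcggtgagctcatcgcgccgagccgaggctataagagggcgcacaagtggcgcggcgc
KLF6, chr10:3785210-3785459, minus strand: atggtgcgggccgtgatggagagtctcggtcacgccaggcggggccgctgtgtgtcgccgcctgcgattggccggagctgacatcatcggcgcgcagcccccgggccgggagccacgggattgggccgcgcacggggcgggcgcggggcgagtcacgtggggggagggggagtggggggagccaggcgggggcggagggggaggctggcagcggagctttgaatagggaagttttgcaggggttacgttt
EGR1, chr5:138465229-138465478, plus strand: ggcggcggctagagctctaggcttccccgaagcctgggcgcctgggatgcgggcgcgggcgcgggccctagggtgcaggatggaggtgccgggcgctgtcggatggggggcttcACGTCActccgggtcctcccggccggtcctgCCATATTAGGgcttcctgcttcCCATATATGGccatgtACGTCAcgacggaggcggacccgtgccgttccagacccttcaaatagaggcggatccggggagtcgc
The EGR1 window held 2 CArG boxes and 2 TGACGT matches, the JUND window 3 TGACGT matches of which 2 overlap as the palindrome on both strands, and the GADD45B window 2 kB motifs and 1 TATAAA. None of the 5 motifs occurred in the IER5 and KLF6 windows, and in the 5 windows shown no match of one motif overlapped a match of another. A match describes letters in this window and shows no binding.

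After 6 h of LPS, 0 of the 36 measured members passed the limma test at an adjusted p under 0.05, where 0.389% of all genes passed. At an unadjusted p under 0.05 there were 7, with IER5, DUSP2 and GADD45B higher in LPS and KLF6, DUSP10, SPRY1 and NR4A2 lower, 19.4% of the members beside 9.56% of all genes. The 3 LPS values lay entirely above the 3 control values in IER5 and entirely below them in EGR4, NR4A2 and SPRY1, 4 members or 11.1%, beside 15.7% of all genes. The median difference, LPS minus control, was -0.01 on the log2 scale over the members and 0.0016 over all genes. Of the members 16 lay above 0 and 20 below, beside 10047 and 9728 of all genes. The 95% intervals of 33 of the 36 (91.7%) lay within 0.5 of 0 on either side, beside 97.5% of all genes. The widest reach was 0.59 upward in IER5 and -0.50 downward in KLF6. The median absolute difference was 0.075 over the members and 0.054 over all genes. Of the 91 probe sets of the members 0 passed, beside 0.264% of all probe sets, 13 had an unadjusted p under 0.05 (14.3%, beside 8.08%) and 13 were separated between groups (14.3%, beside 13.4%). A second fit carried the array set as a block and is called the set-blocked fit; it was chosen with results of these data known. There 4 members passed, where 2.02% of all genes did: IER5 and GADD45B were higher (0.865% of all genes) and JUND and KLF6 lower (1.16% of all genes). All 4 calls were lost without control 1 and without LPS 3, each of which leaves an array set with a single group. JUND also lost its call without control 2 and without LPS 1, and KLF6 without LPS 1. DUSP10 passed in addition without control 3.

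**Figure D1:**
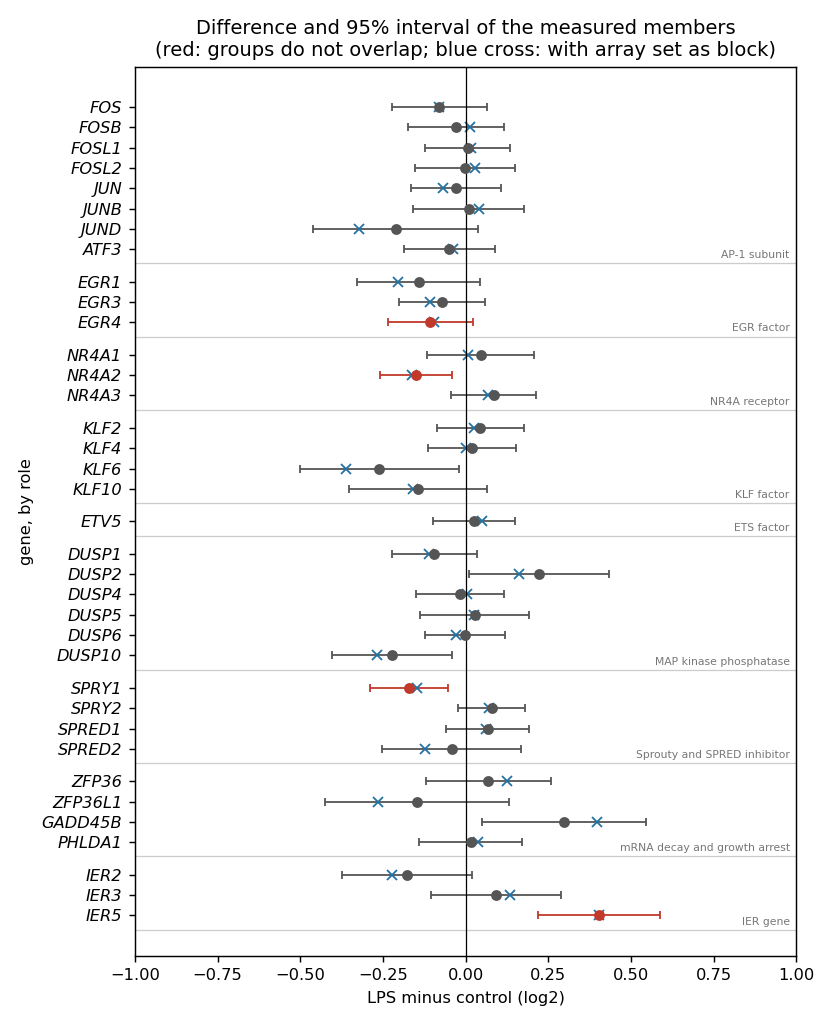
LPS minus control on the log2 scale for the 36 measured members, grouped by role, with points and 95% limma intervals (3 arrays per group). Red points are the 4 members whose LPS and control values do not overlap, and blue crosses are the differences in the set-blocked fit. IER5 at 0.40 stands farthest to the right and KLF6 at -0.26 farthest to the left.

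The IER genes are early response genes of varied function. IER5, whose product works with the phosphatase PP2A and the heat shock factor HSF1, had the largest difference of all members. Its control values were 9.77, 9.79 and 9.87, and its LPS values 10.26, 10.21 and 10.17. Every LPS value lay above every control value, by more than the spread within either group. The difference was 0.40 (SE 0.086, 95% interval 0.22 to 0.59), a 1.32-fold level, with limma adjusted p = 0.0841. It was 0.47 among the A arrays and 0.34 among the B arrays, and in the set-blocked fit 0.40 (SE 0.075, adjusted p = 0.00416). There it passed without control 2 or 3 and without LPS 1 or 2 (adjusted p from 0.00588 to 0.0345), but not without control 1 (adjusted p = 0.277) or LPS 3 (adjusted p = 0.0906). The single IER5 probe set gives no second reading of this gene.

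IER2, a nuclear early response protein, had control values of 9.67, 9.55 and 9.43 and LPS values of 9.45, 9.35 and 9.32. The groups overlapped only through control 3, just under LPS 1, and the difference was -0.18 (SE 0.091, adjusted p = 0.668). IER3, a regulator of survival, had control values of 7.43, 7.39 and 7.30 and LPS values of 7.29, 7.41 and 7.69. Only LPS 3 exceeded all controls, and IER3 differed by -0.07 among the A arrays and 0.34 among the B arrays.

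Among the regulators of mRNA decay and growth arrest, GADD45B, a stress protein that acts on the p38 and JNK cascades, differed most. Its control values were 8.18, 8.50 and 8.65 and its LPS values 8.58, 8.76 and 8.87. The groups overlapped, since control 3 exceeded LPS 1. Within each array set every LPS value lay above the controls, with differences of 0.49 for the A arrays and 0.30 for the B arrays. The pooled difference was 0.30 (SE 0.12, 95% interval 0.05 to 0.55, adjusted p = 0.507), and in the set-blocked fit 0.40 (SE 0.082, adjusted p = 0.0101). A pair of further GADD45B probe sets gave 0.26 and 0.23 pooled and both passed in the set-blocked fit (adjusted p = 0.0141 and 0.0475), while the dimmest gave -0.015. The gene also differed between the sets themselves, higher by 0.30 in the B arrays with LPS in the fit (adjusted p = 0.0327). Without control 1, its lowest array, the pooled difference was 0.17.

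ZFP36, which binds AU-rich mRNAs and promotes their decay, had control values from 7.73 to 7.998 and LPS values from 7.84 to 8.02, a difference of 0.07 (95% interval -0.12 to 0.26). Its paralogue ZFP36L1 differed by -0.15 (95% interval -0.43 to 0.13), with control 1 highest at 8.89, and by -0.0062 without control 1. ZFP36L1 was lower in B than in A arrays by 0.35 (adjusted p = 0.0158), and its 3 other probe sets gave -0.06 to 0.14. PHLDA1, a pleckstrin homology protein linked to cell death, differed by 0.02, with 6 probe sets between -0.04 and 0.09.

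**Figure D2:**
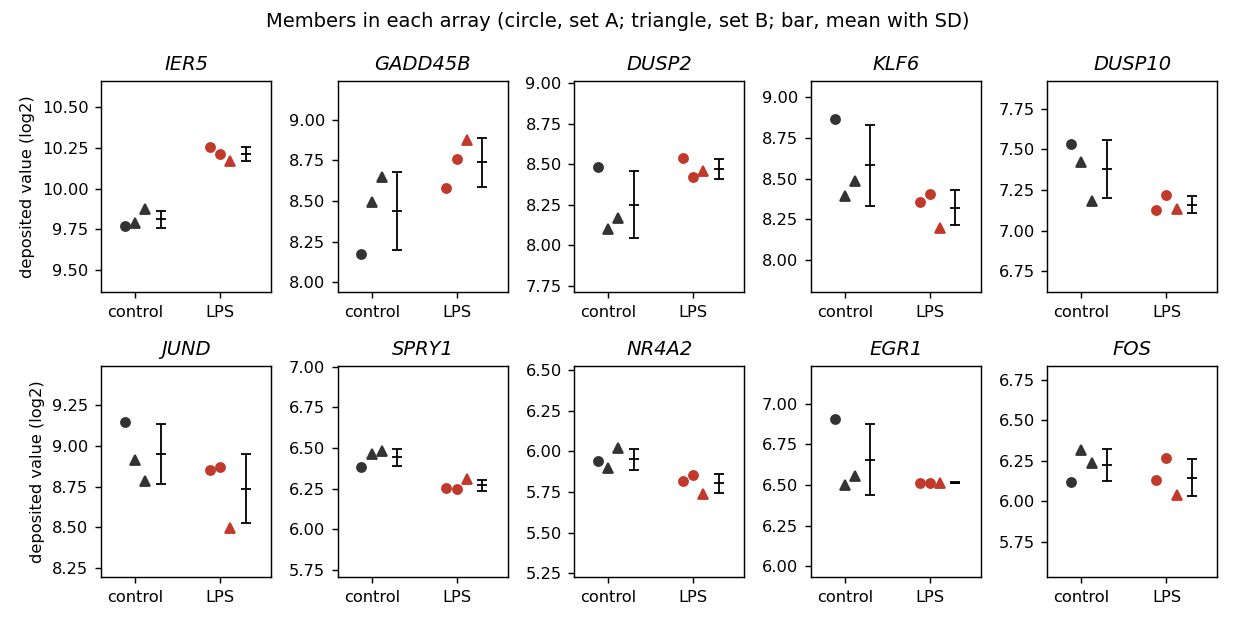
Deposited log2 values of 10 members in each of the 6 arrays, controls in black and LPS in red, circles for array set A and triangles for set B, with the group mean and SD beside them. Each panel spans the same range of values. IER5 separates by group in both sets, GADD45B by group within each set, and KLF6, EGR1 and GADD45B have a control 1 that stands apart from the other controls.

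The AP-1 subunits dimerise through leucine zippers and bind the AP-1 site. Of the 8 measured 0 passed, with 6 below 0 and 2 above, differences from -0.21 to 0.01 and a median of -0.03. The largest belonged to JUND, a JUN protein made in many cell types also at rest, with control values of 9.15, 8.92 and 8.78 and LPS values of 8.85, 8.87 and 8.49. The groups overlapped, with LPS 3 lowest and control 1 highest. The difference was -0.21 (SE 0.12, adjusted p = 0.7; -0.11 without control 1 and -0.09 without LPS 3), -0.29 among the A arrays and -0.36 among the B arrays. In the set-blocked fit it was -0.32 (SE 0.076, adjusted p = 0.0306). JUND was also lower in B than in A arrays by 0.33 (adjusted p = 0.00962). Its 3 dimmer probe sets gave -0.11, -0.08 and 0.09 and did not pass in either fit.

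FOS, the classical immediate early gene, stood below the median of probe set levels, with controls at 6.12, 6.32 and 6.24 and LPS at 6.13, 6.27 and 6.04. The groups overlapped, and the difference was -0.08 (95% interval -0.22 to 0.07). JUNB, a dimerisation partner of FOS, also overlapped, with controls at 8.05, 8.14 and 8.13 and LPS at 8.16, 8.002 and 8.18. The difference was 0.01 (95% interval -0.16 to 0.18). JUN, FOSB, FOSL1, FOSL2 and the stress factor ATF3 differed by -0.05 to 0.01 at mean levels from 6.41 to 7.05. The lowest value of the files was 5.46, and these intervals bound the change of the signal and not of the transcript.

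The EGR zinc finger factors lie directly downstream of ERK. All 3 measured had a negative difference, and 0 passed. EGR1 had controls at 6.91, 6.50 and 6.56 and LPS at 6.51, 6.51 and 6.52. Control 1 stood apart, and the other controls lay close on either side of the LPS arrays. The difference of -0.14 (95% interval -0.33 to 0.04, adjusted p = 0.746) was -0.39 among the A arrays, which holds control 1, -0.01 among the B arrays and -0.02 without control 1. EGR4 had controls at 6.57, 6.59 and 6.52 and LPS at 6.49, 6.36 and 6.51. These did not overlap, by a margin far smaller than the spread within the LPS group, and the difference was -0.11 (SE 0.06, adjusted p = 0.713), with its other 2 probe sets at 0.0028 and -0.03. EGR3 differed by -0.07, with control 1 again the highest array.

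The NR4A orphan nuclear receptors are induced by antigen receptor signalling in lymphocytes and act as brakes on activation. NR4A1 gave 0.05 (95% interval -0.12 to 0.21) from controls of 7.42 to 7.63 and LPS values of 7.52 to 7.63. Its 2 other probe sets gave 0.07 and 0.13. NR4A2 had controls at 5.94, 5.89 and 6.02 and LPS at 5.82, 5.85 and 5.74. All LPS values were lower, with a difference of -0.15 (SE 0.051, adjusted p = 0.403), at a level close to the floor, and the other 2 NR4A2 probe sets gave -0.06 and 0.01. NR4A3 differed by 0.08 (95% interval -0.05 to 0.21).

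Among the KLF factors, KLF6, a zinc finger regulator of growth, had the most negative difference of all members. Its controls stood at 8.86, 8.39 and 8.49 and its LPS values at 8.36, 8.40 and 8.20. The groups overlapped by a small margin, control 2 against LPS 2, and control 1 stood well above the rest. The difference was -0.26 (SE 0.11, 95% interval -0.50 to -0.02, adjusted p = 0.569), -0.48 among the A arrays, -0.24 among the B arrays and -0.12 without control 1. In the set-blocked fit it was -0.36 (SE 0.079, adjusted p = 0.0151). All 5 KLF6 probe sets had a negative difference, from -0.27 to -0.02, and the 3 brightest passed in the set-blocked fit (adjusted p = 0.0151, 0.02 and 0.0339). KLF6 was lower in B than in A arrays by 0.30 (adjusted p = 0.0237). KLF10, an early target of TGF-beta, gave -0.14 (95% interval -0.35 to 0.06), with 0.06 among the A arrays and -0.38 among the B arrays, where LPS 3 was the lowest array at 8.71. KLF2, which maintains quiescence and homing in lymphocytes, gave 0.04 and KLF4 0.02, with levels between 6.20 and 6.70 on all arrays. ETV5, an ETS factor downstream of ERK, gave 0.02 (95% interval -0.10 to 0.15). Its 4 other probe sets gave -0.11 to -0.05, and the mean over all its probe sets gave -0.07.

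The 6 MAP kinase phosphatases divided between both directions, 2 above 0 and 4 below, and 0 passed. DUSP2, a nuclear phosphatase of activated lymphocytes, had controls at 8.48, 8.10 and 8.17 and LPS at 8.54, 8.42 and 8.46. All LPS arrays exceeded controls 2 and 3, and control 1 lay among them. The difference was 0.22 (SE 0.098, 95% interval 0.01 to 0.43, adjusted p = 0.586), -0.0034 among the A arrays and 0.33 among the B arrays. Without control 1 it was 0.34 (adjusted p = 0.0874), and in the set-blocked fit 0.16 (adjusted p = 0.538).

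DUSP10, which inactivates JNK and p38, had controls at 7.53, 7.42 and 7.18 and LPS at 7.13, 7.22 and 7.13. Control 3 alone overlapped the LPS arrays. The difference was -0.22 (SE 0.085, 95% interval -0.40 to -0.04, adjusted p = 0.499), with -0.36 among the A arrays and -0.17 among the B arrays. Without control 1 it was -0.14. Its other probe set, at -0.20, separated the groups without overlap (adjusted p = 0.273). In the set-blocked fit the brighter probe set gave -0.27 (adjusted p = 0.0967), and -0.33 without control 3 (adjusted p = 0.0213). DUSP1, the phosphatase of p38 and JNK induced by many stresses, gave -0.09 (95% interval -0.22 to 0.03). A dimmer DUSP1 probe set gave -0.14 with no overlap between groups (adjusted p = 0.511). The remaining DUSP1 probe set, the dimmest, gave 0.05 and its groups overlapped. The ERK phosphatases DUSP4, DUSP5 and DUSP6 gave -0.02, 0.03 and -0.00085, and their intervals ran together from -0.15 to 0.19.

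Of the Sprouty and SPRED inhibitors, SPRY1 had controls at 6.38, 6.46 and 6.48 and LPS at 6.25, 6.25 and 6.31. All LPS values lay below all controls, and the difference was -0.17 (SE 0.054, 95% interval -0.29 to -0.05, adjusted p = 0.343). The other SPRY1 probe set gave -0.0051. SPRED2, which brings neurofibromin to RAS, had controls at 8.28, 7.996 and 8.02 and LPS at 8.22, 8.04 and 7.92, which overlapped, and differed by -0.04 (95% interval -0.25 to 0.17). SPRY2 gave 0.08 and SPRED1 0.07, and all 3 SPRED1 probe sets lay above 0, at 0.07 to 0.10.

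The differences were larger among bright probe sets, in the members as in all genes. Of the 36 members 13 lay above the upper quartile of probe set levels, 36.1% beside 37.8% of all genes. These 13 had a median absolute difference of 0.15 and the other 23 one of 0.05, beside 0.09 and 0.04 over all genes split at the same level. IER5, GADD45B, JUND, KLF6 and DUSP2 belong to the brighter members, and FOS, FOSB, EGR1, EGR3, EGR4, DUSP4, DUSP6, SPRY1 and SPRY2 to the dimmer ones. Fewer expressing cells and less RNA per cell cannot be told apart in these bulk samples.

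**Figure D3:**
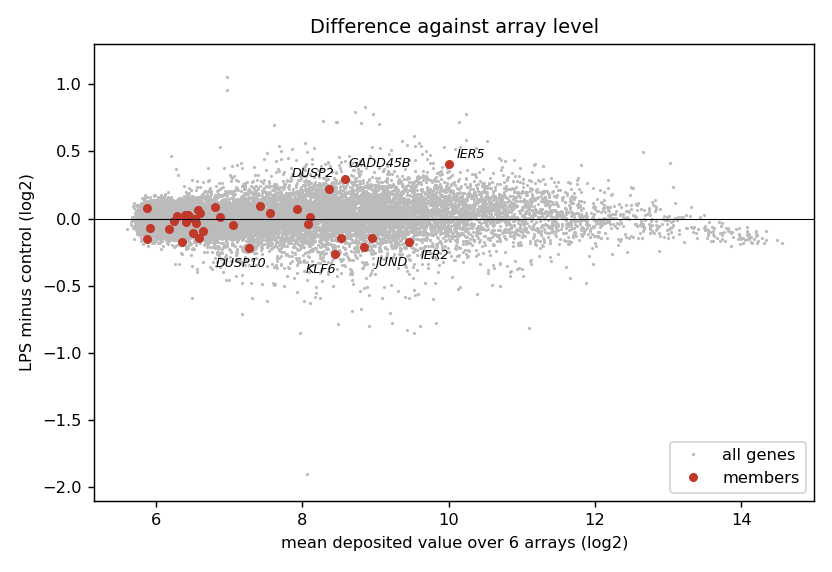
LPS minus control against the mean deposited value over 6 arrays, both on the log2 scale, for all 19775 genes (grey) and the 36 members (red). The members lie inside the cloud of all genes, with 23 of them below the upper quartile of probe set levels and IER5 the highest of them.

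Several members also differed between the array sets. With LPS in the fit, 4 members differed between the sets at an adjusted p under 0.05, JUND, ZFP36L1 and KLF6 lower in the B arrays and GADD45B higher, 11.1% of members beside 4.47% of all genes. In 15 of the 36 members the LPS difference had opposite signs within the 2 sets, beside 8614 of all 19775 genes. The median was 0.03 among the A arrays and -0.07 among the B arrays, beside 0.0025 and -0.0073 over all genes. Values within a set rest on a single A control and a single B LPS array. Control 1 was the highest control in 15 members (41.7%, beside 38.6% of all genes) and the lowest in 17 (47.2%, beside 32.4%). In KLF6, EGR1, ZFP36L1, DUSP2, JUND, SPRED2, EGR3, JUN and NR4A3 it exceeded the other controls by more than these differed from each other. By the same measure it fell below them in FOS, FOSB, FOSL2, JUNB, DUSP4, ATF3, ZFP36, SPRY1, KLF10, ETV5 and GADD45B.

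**Figure D4:**
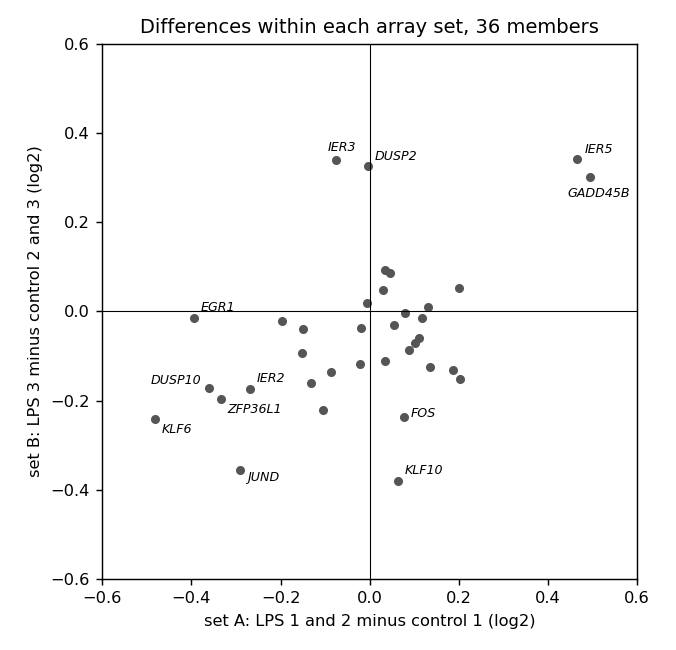
LPS minus control among the A arrays (horizontal) and among the B arrays (vertical), log2 scale, for the 36 members. IER5 and GADD45B are the pair above 0.3 in both sets, and KLF6 and JUND the pair under -0.2 in both. IER3, KLF10 and FOS have opposite signs in the sets.

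The promoter letters were compared over the 30 members that the RefSeq table holds, 28 of them measured. TGACGT occurred before at least 1 gene start in 10 of 30 members (33.3%), FOS, FOSB, FOSL2, JUND, EGR1, EGR2, EGR4, DUSP1, NR4A3 and ZFP36L1, beside 8.62% of 27305 genes. CArG boxes occurred in EGR1 and EGR2 (6.67%, beside 1.44%), kB motifs in EGR2, EGR4 and GADD45B (10%, beside 11.8%), TATAAA in 7 members (23.3%, beside 13%) and TGANTCA in 0 (beside 8.06%). The windows of members were richer in G and C than all windows, with medians of 68% and 58%. Of the 9 measured members with TGACGT, 8 had a negative difference and NR4A3 a positive one, with a median of -0.09. Of the 19 members without it 8 had a negative difference, with a median of 0.02. The median level was 6.58 in members with TGACGT and 7.27 in those without. Of the motifs searched, only TGACGT was split by difference. The 8 with TGACGT ran from -0.21 in JUND to -0.0012 in FOSL2. Among them FOSL2, JUND, EGR4, DUSP1 and ZFP36L1 also had a probe set above 0, while FOS, FOSB and EGR1 had none. Over all genes 47.6% of those with TGACGT and 49% of those without lay below 0. The median of the 9 was -0.09 among the A arrays, -0.13 among the B arrays and -0.08 without control 1. Of the 9, 6 lay below 0 in the set-blocked fit, with a median of -0.10, beside 8 of the 19. Over all genes, 820 of the 1656 with TGACGT lay below 0 in that fit. None of the 9 passed the pooled test and JUND passed in the set-blocked fit, 6 of the 9 are FOS, JUN or EGR genes, and this comparison was made after their values were seen.

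The MAP kinase cascade that feeds these genes was followed in a list of 57 genes, of which 47 were measured. Of these 0 passed, beside 0.389% of all genes, and 8 had an unadjusted p under 0.05 (17%, beside 9.56%). There were 30 above 0 and 17 below, with a median of 0.04, beside 10047 of all 19775 genes above 0 and a median of 0.0016. The median of the list was 0.0049 among the A arrays, 0.02 among the B arrays and 0.0048 in the set-blocked fit. Of the 47, 36 lay above the upper quartile of probe set levels, where 15.9% of all genes had an unadjusted p under 0.05. In the set-blocked fit 3 passed (6.38%, beside 2.02% of all genes), 2 higher and 1 lower. The smallest unadjusted p values belonged to MAP3K8, the kinase that links Toll-like receptors to ERK, at 0.29 (adjusted p = 0.0853), RPS6KA1, an ERK-activated ribosomal S6 kinase, at 0.53 (adjusted p = 0.191), and MAP2K6, which activates p38, at -0.26 (adjusted p = 0.344). In the set-blocked fit MAP3K8 gave 0.30 (adjusted p = 0.0131), RPS6KA1 0.39 (adjusted p = 0.0105) and MAP2K6 -0.24 (adjusted p = 0.175). MAP3K8 and MAP2K6 each separated the groups without overlap, and RPS6KA1 was lower in the B arrays by 0.42. The third call in the set-blocked fit was MAP2K5, the kinase of ERK5, at -0.29 (adjusted p = 0.0476). SRF itself gave 0.19 (adjusted p = 0.532), with all LPS values above all controls.

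Other feedback and early response genes, a list of 36 with 35 measured, gave 0 calls by limma as well and 7 at an unadjusted p under 0.05 (20%, beside 9.56% of all genes), with 19 above 0, 16 below and a median of 0.0069. The smallest unadjusted p values belonged to DUSP22, a phosphatase of the JNK pathway, at 0.36 (adjusted p = 0.16), BTG3, an antiproliferative relative of BTG2, at 0.30 (adjusted p = 0.258), and PEA15, which holds ERK in the cytoplasm, at 0.28 (adjusted p = 0.322). In these 3 all LPS values lay above all controls. The set-blocked fit gave 3 calls (8.57%, beside 2.02% of all genes). DUSP22 at 0.38 (adjusted p = 0.0085) and BTG3 at 0.32 (adjusted p = 0.0382) passed upward. GADD45A, a relative of GADD45B and a target of p53, passed downward at -0.37 (adjusted p = 0.00992), opposite to GADD45B in that fit. In the main fit GADD45A gave -0.29 (limma adjusted p = 0.394) and, like GADD45B, did not pass. None of the 3 calls, nor that of GADD45B, held in the set-blocked fit without control 1 or without LPS 3. Control 1 was the highest control of GADD45A (9.11, beside 8.82 and 8.77) and the lowest of GADD45B. The difference between the 2 relatives was not tested.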

How the data were processed

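Expression was measured on 6 Affymetrix arrays, 3 per group. The labels' protocols name column purification and biotin labelling by in vitro transcription. The values deposited by the authors were taken as log2, inferred from their range of 5.46 to 14.81. The background correction, summary and normalisation behind them are not given in the sources used here, and no detection calls were used. The array medians ran from 6.42 to 6.47.

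The 62 control probe sets were left out and 54613 tested in R 4.3.3 with limma 3.58.1, with group as the only term, an intensity trend, two-sided tests and Benjamini-Hochberg adjustment over all probe sets (threshold 0.05). Of these, 41091 had 1 gene symbol, 1801 several and 11721 none. RefSeq changed 0 symbols. The array number limits the precision, with a median SE over members of 0.069. The steps were tested on simulated data without array sets, with added changes larger than any member difference. That test does not bear on smaller changes or on the set-blocked fit. Alternatives changed the block, normalisation, filter, variance prior, array weights and choice of probe set, or left out each array. Promoter windows were taken from the RefSeq table as given, on the strand of the gene. Array sets were parted at the widest gap in control level, 0.22, the next being 0.081.

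The members and lists were chosen with earlier results of these data known. All members could be named, with values of all arrays for those separated between groups or with an unadjusted p under 0.05; others given in full were chosen after their values were seen. Of the other lists, the 3 smallest p were named; MAP2K5, SRF and GADD45A were added after their values were seen.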

Additional observations from a re-analysis of the deposited data

How the results depend on the processing

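The median difference over members, -0.009, ran from -0.029 to 0.0059 over the alternatives without the array set, with its sign turned in several, beside an SD of 0.031 between arrays of a group for the member median. With array set as block it was 0.0031, and -0.065 without control 1 and 0.032 without LPS 3 in that fit. Members called were 1 (IER5) with a replicate block, without the intensity trend, with array weights, with a gene's probe sets averaged and among probe sets above the median level, 0 with quantile normalisation, median centring and without _x_at and _s_at probe sets, and 4 with array set as block. Without each array in turn they were 0 in every case, and with array set as block as well 0, 3 and 5 without controls 1 to 3 and 2, 4 and 0 without LPS 1 to 3. IER5 ran from 0.34 to 0.47 over its alternatives. Its adjusted p was 0.0283 with the replicate block and 0.0875 to 0.426 without each array in turn. All genes called were 270 with the replicate block, 167 with quantile normalisation, 122 without the trend, 163 with array weights, 400 with array set as block, and 6 to 201 without each array in turn, against 77 as reported. With the block and without control 1, 2 or 3 they were 101, 399 and 337, and without LPS 1, 2 or 3 they were 221, 390 and 64. MAP kinase pathway genes called were 2 with the replicate block, 1 with quantile normalisation, 1 with array weights, 3 with array set as block, and 0 to 1 without each array in turn (0, 3 and 2 with the block and without control 1, 2 or 3, and 0, 2 and 0 without LPS 1, 2 or 3). Other feedback genes called were 1 without the trend, 1 with the mean over probe sets, 3 with array set as block, and 0 without each array in turn (0, 3 and 2 with the block and without control 1, 2 or 3, and 2, 3 and 0 without LPS 1, 2 or 3).

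GADD45B turned to -0.015 without _x_at and _s_at probe sets, since its dimmest probe set then represents it. With array set as block and without LPS 3, FOSL2 gave 0.19 and DUSP2 -0.0034; only set A then informs the difference. In 23 members the sign turned under at least 1 alternative. Same-numbered arrays deviated together at correlations of 0.44, -0.04 and 0.23, and arrays of other numbers at -0.47 to 0.32. Deviations within a group depend on each other, so these values cannot decide whether the numbers pair the samples. The main fit took no pairing, and the replicate block is given above as an alternative. Dim signal limits what can be seen of FOS, EGR and DUSP genes near the floor.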
